A study of Mus musculus with 13 samples.

Results

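The genes for the proteins of the cytosolic ribosome, 89 in all, were followed in macrophages of the mouse sciatic nerve and optic nerve and in brain microglia. The genes were taken by symbol from the 48587 rows of a bulk RNA-seq count table: every Rpl or Rps symbol with a number and an optional paralog suffix, plus Rpsa, Rplp0, Rplp1 and Rplp2. Symbols with -ps (275 rows) and the S6 kinases were left out. Of the 89 genes, 53 belong to the large subunit (60S) and 36 to the small subunit (40S). The symbols also take in 5 genes annotated as pseudogenes, and they miss genes that encode ribosomal proteins under other symbols, such as Fau and Rack1.

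The libraries came from sciatic nerve macrophages (4), optic nerve macrophages (4) and brain microglia (5), all total RNA of the C57BL/6J strain, with no treatment, age or sorting gate given in the sources used here. The sciatic nerve belongs to the peripheral nervous system, and the optic nerve and brain to the central nervous system, and the study asks how their macrophages differ. The nerve columns carry the labels' own replicate numbers, whereas the 5 brain columns were assigned by elimination and are numbered here as in the count table. No label ties a replicate to its own animal, so replicates could be technical, and p-values then measure only the spread between these libraries.

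Each ribosome is built from ribosomal RNA and a fixed set of small proteins, nearly all present in a single copy, so cells keep the output of these genes in balance. Their mRNAs typically start with a cytosine followed by a run of pyrimidines, the 5' TOP tract, through which the kinase mTORC1 and the RNA-binding protein LARP1 control their translation. Ribosomal protein mRNAs are also a common source of processed pseudogenes in mammalian genomes. A read from such a gene can therefore match several places.

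Library depth ran from 10.9 to 23.5 M counts, and 13246 genes passed the filter on low counts. Levels are in CPM, counts per M after scaling of the libraries by TMM, and a gene is said to be called at an adjusted p under 0.05. Brain libraries 1 and 2 stood apart from brain libraries 3, 4 and 5, so the counts of called ribosomal protein genes against brain are given with and without them. Many values for single genes, and the fits under other scalings, are given with all brain libraries only. Whether those hold without brain libraries 1 and 2 is stated only where a value is printed. Brain library 1 was the shallowest. Its mitochondrially encoded genes took 2.62% of counts, against 0.267% to 0.799% over the other 12 libraries. The summed level of 8 neuron markers was 28.1 CPM in it, 7.62 CPM in brain library 2 and 1.26 to 3.18 CPM in brain libraries 3 to 5. Of 10 macrophage markers none was at 0 in any tissue, and their summed levels were 34234 to 39361 CPM in the sciatic nerve, 40008 to 51230 CPM in the optic nerve and 29864 to 40343 CPM in the brain. The 8 microglia markers summed to 2869 to 3211 CPM in the sciatic nerve, 25102 to 28126 CPM in the optic nerve and 28594 to 54360 CPM in the brain. Of 6 monocyte markers 3 were tested, and all 3 were called higher in sciatic nerve than in brain. They summed, with those not tested, to 4758 to 6683 CPM in the sciatic nerve, 118 to 289 CPM in the optic nerve and 2.66 to 10.2 CPM in the brain. Most of the sciatic nerve sum was F13a1, with a mean of 4916 CPM, followed by Ccr2 with 458 CPM. Plac8 averaged 12.1 CPM there, Vcan 0.552 CPM and Ly6c2 0.0692 CPM, and Chil3 was at 0. The 8 oligodendrocyte markers summed to 166 to 236, 267 to 333 and 123 to 178 CPM, in that order of tissues. Of 10 fibroblast markers 8 were tested, and all 8 were called higher in sciatic nerve than in brain. The list summed to 199 to 421 CPM in the sciatic nerve, 13.5 to 43.4 CPM in the optic nerve and 2.75 to 7.65 CPM in the brain, where Col3a1, Lum, Serping1 and Mfap5 were at 0. Most of each sum was Gsn, with means of 210, 25.1 and 4.43 CPM in that order of tissues. Dcn had 83.4 CPM in sciatic nerve library 1 and 10.1 to 22.7 CPM in the other sciatic nerve libraries. Of 20 immediate early and dissociation response genes 19 were called higher in each nerve than in brain. Their summed levels were 33602 to 39273 CPM in the sciatic nerve, 16809 to 21303 CPM in the optic nerve and 997 to 1300 CPM in the brain. The part of these differences in the results below was not tested. In bulk libraries a smaller number of cells of a type and less RNA per cell cannot be told apart.

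Paralog pairs show how much sequence separates the rows of the count table. The first 90 coding bases of Rps4x, the X-linked small subunit gene, are set here beside the aligned stretch of Rps4l, a gene on chromosome 6 annotated as a transcribed processed pseudogene, with the 15 differing bases in capitals (GENCODE vM21, GRCm38).
Rps4l: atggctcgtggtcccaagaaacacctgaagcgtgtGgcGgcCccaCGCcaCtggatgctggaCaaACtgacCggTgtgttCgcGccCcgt
Rps4x: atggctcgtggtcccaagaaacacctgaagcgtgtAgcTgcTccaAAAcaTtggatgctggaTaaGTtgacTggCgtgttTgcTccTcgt
Over 783 aligned positions the pair was 79.9% identical with no gap, and the Rps4l stretch held no in-frame stop.
The first 90 coding bases of Rps27l and Rps27 differ at 24 positions, again in capitals.
Rps27l: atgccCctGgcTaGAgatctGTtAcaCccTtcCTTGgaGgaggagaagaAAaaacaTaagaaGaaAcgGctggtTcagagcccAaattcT
Rps27: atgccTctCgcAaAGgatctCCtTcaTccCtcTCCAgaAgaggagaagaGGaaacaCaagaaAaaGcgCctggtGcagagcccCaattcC
Rps4l shared 14.9% of its 50-base windows with another annotated gene, and Rps4x 72.2%.

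Exact copies of stretches of these genes were common. Transcripts were cut into windows of 50 bases, and 86 of the 89 genes shared at least 1 window, base for base, with another annotated gene. The median share of windows in common with another gene was 41.8% over the 89 genes, against 0% over 12842 tested genes matched to the annotation. Rpl10 shared 85.4% of its windows with 15 other genes, 14 of them pseudogenes, and Rps6 shared 84.6%, whereas Rps3 shared 2.96%. At least 50% of windows were shared by 28 tested members, which had a median level of 3.65 CPM per kb of exons, against 14.1 CPM per kb for the other 54; of all matched tested genes, 3.29% reached that share. Across the 82 genes Spearman's correlation of shared windows with CPM per kb was -0.41, a description over genes of the same libraries that are not independent. How the authors counted reads that map to several places is not given in the sources used here, so the levels of genes such as Rpl10, Rps6, Rpl3 and Rps12 are uncertain. A library-to-library difference of such a gene can include reads of its copies.

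**Figure D1:**
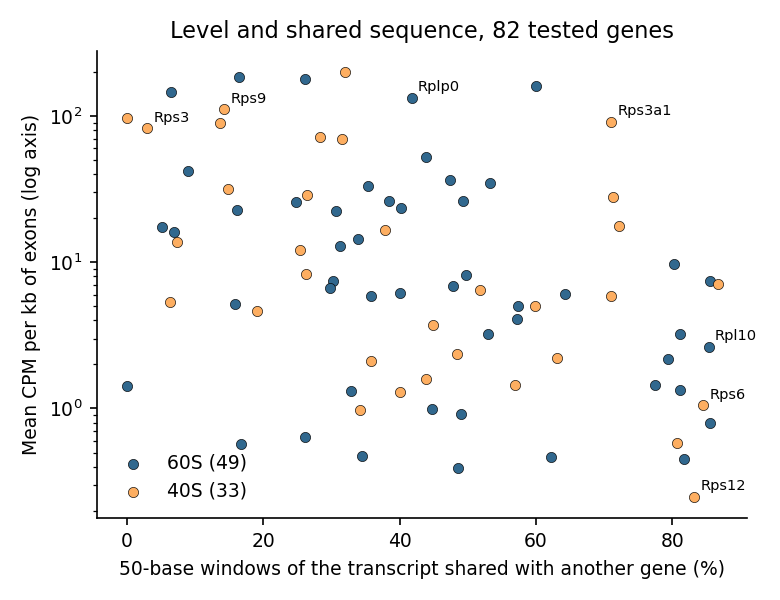
Mean level over 13 libraries in CPM per kb of exons (log axis) against the percent of 50-base transcript windows shared with another annotated gene, 1 point for each of the 82 tested ribosomal protein genes, coloured by subunit. Rps12, Rps6 and Rpl10 lie at the right with high shares and low levels, Rps3 at the left with a high level, and Rps3a1 has both a high share and a high level.

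Levels of these genes spanned a wide range although their proteins are needed in near-equal amounts. Per kb of exons the lowest of the 82 tested genes was Rps12, at 0.250 CPM, named after its value was seen. By CPM per gene the highest means over the 13 libraries were those of Rps3 (372 CPM, or 83.0 CPM per kb), which lines the mRNA entry channel, Rpl4 (371 CPM, 184.8 CPM per kb), which lines the peptide exit tunnel, and Rps9 (281 CPM, 111.5 CPM per kb). At the low end, 7 of the 89 genes were not tested. Rps12l1 had 0 counts in every library, and the muscle and testis paralogs Rpl3l and Rpl10l, the copies Rpl6l, Rps3a2 and Rps3a3, and Rpl23a had at most 13 counts in any library. Rpl23a reached 11 counts at most, and 62.3% of its exon length overlaps another annotated gene.

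All 89 genes together took a small part of the counts, 0.376 ± 0.0422% in sciatic nerve, 0.450 ± 0.0227% in optic nerve and 0.327 ± 0.153% in brain (mean ± SD, n = 4, 4 and 5). By library the share was 0.327%, 0.389%, 0.362% and 0.427% in sciatic nerve, 0.483%, 0.449%, 0.433% and 0.437% in optic nerve, and 0.563%, 0.401%, 0.229%, 0.210% and 0.235% in brain. Brain libraries 3 to 5 lay below all 8 nerve libraries, with a mean of 0.224%, whereas brain libraries 1 and 2 had a mean of 0.482% and brain library 1 was the highest of the 13. The -ps rows added 0.777 to 0.968 counts per 100 counts of the 89 genes in the nerves and 0.820 to 0.896 in brain libraries 3 to 5, but 1.95 in brain library 1 and 1.17 in brain library 2. The ratio of 60S to 40S counts was 1.05 ± 0.0362 in sciatic nerve (1.01 to 1.09), 1.16 ± 0.0230 in optic nerve (1.14 to 1.18) and 1.22 ± 0.0477 in brain (1.15 to 1.28). The sciatic nerve ratios did not overlap those of optic nerve or brain, whereas the optic nerve and brain ranges overlapped.

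**Figure D2:**
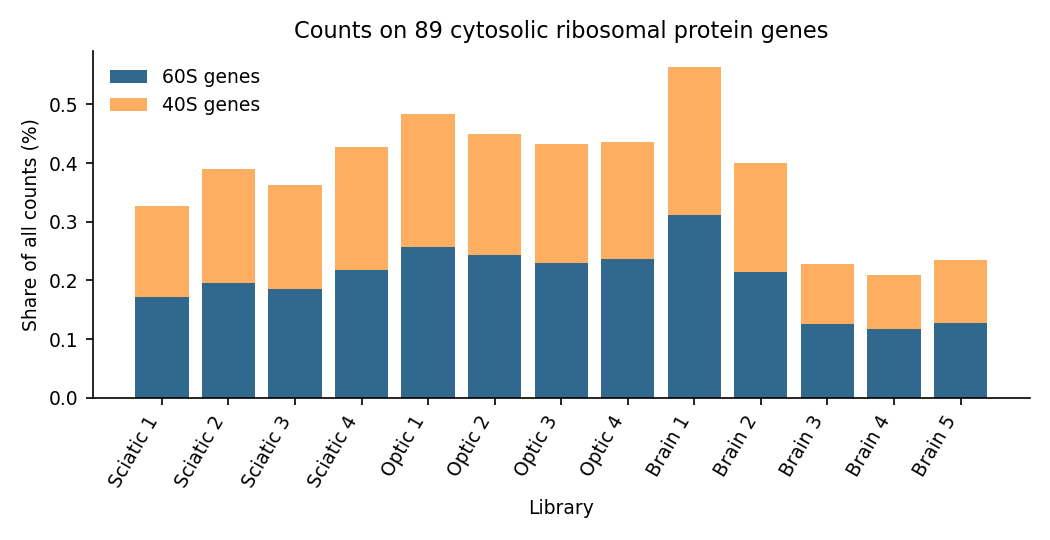
Share of all counts (%) on the 89 ribosomal protein genes in each of the 13 libraries, stacked as 60S and 40S genes. The nerve libraries lie between 0.327% and 0.483%, brain libraries 1 and 2 at 0.563% and 0.401%, and brain libraries 3 to 5 between 0.210% and 0.235%.

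The brain libraries were themselves divided. In 68 of the 82 tested genes both brain libraries 1 and 2 lay above brain libraries 3 to 5, an arrangement shown by 25.3% of all 13246 genes, and in 1 (Rpl7l1) both lay below, against 26.7% of all genes. The median log2 ratio of the mean of libraries 1 and 2 to that of libraries 3 to 5 was 1.11 over the 82 genes and 0 over all genes. The 2 kinds of brain library were set apart from the data and not by a label, so these are descriptions with no test. Neuron markers, mitochondrial counts and -ps counts were also highest in brain library 1, as given above. The 8 microglia markers summed to 28594 CPM in brain library 1, 37658 CPM in brain library 2 and 53718 to 54360 CPM in brain libraries 3 to 5. Of these markers Siglech went the other way, at 3513 and 2791 CPM against 2090 to 2160 CPM, and Tmem119 and Sall1 overlapped. Whether these differences account for part of the ribosomal protein counts of brain libraries 1 and 2 was not tested.

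**Figure D3:**
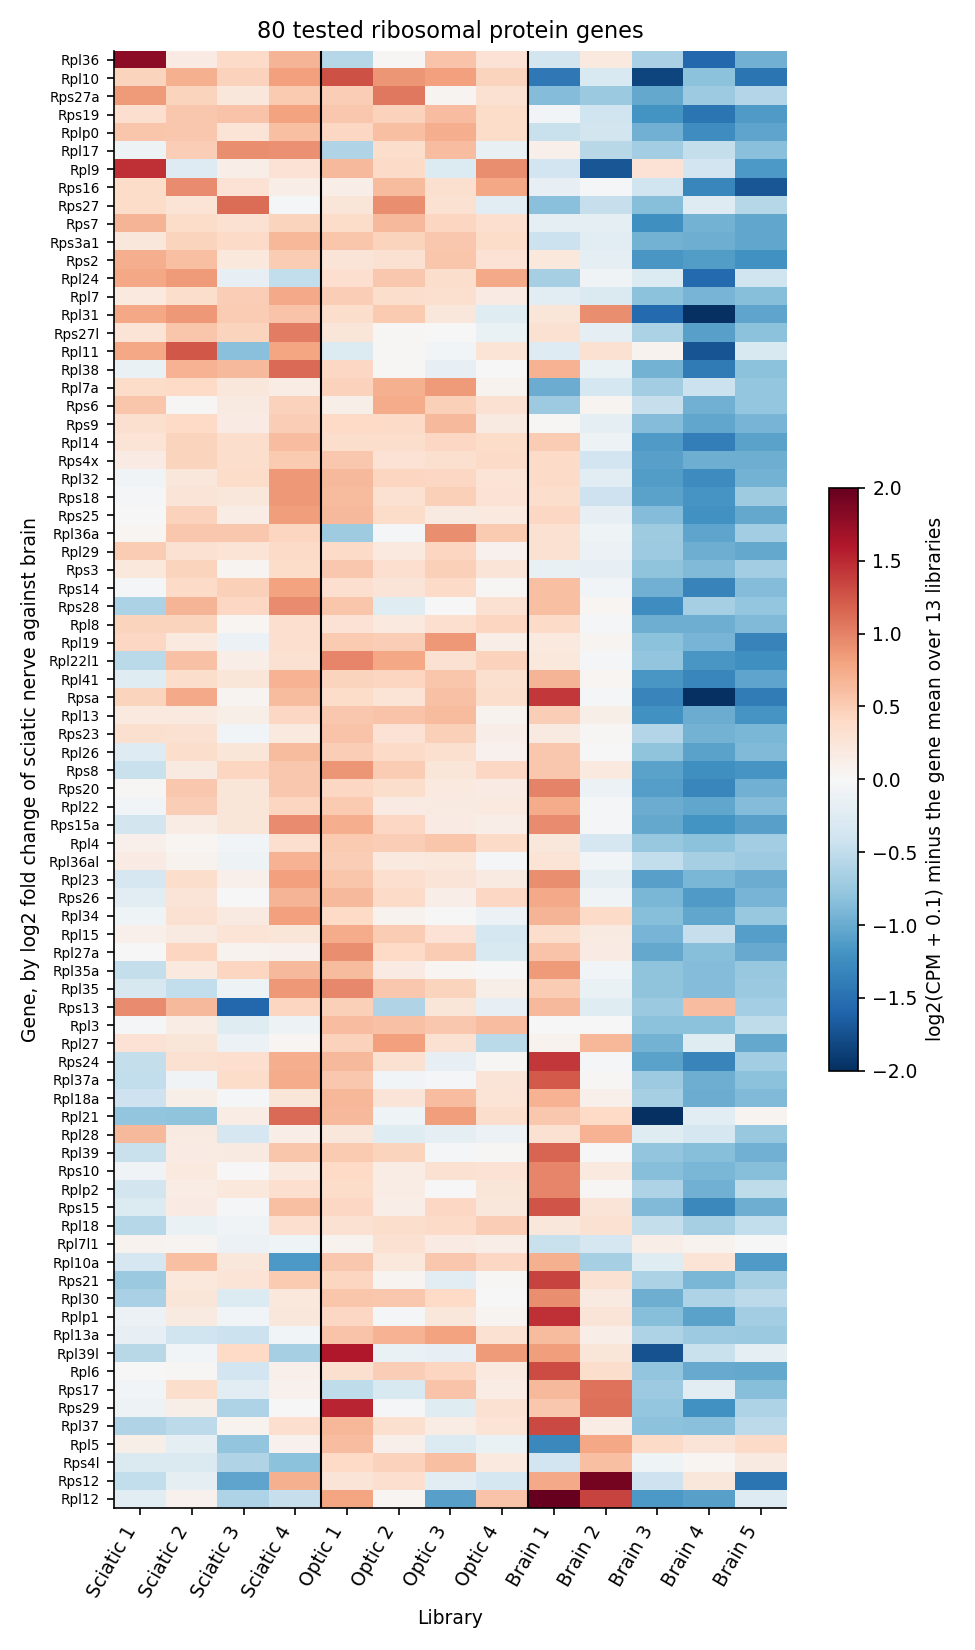
Level of 80 of the 82 tested genes (rows, ordered by the log2 fold change of sciatic nerve against brain) in the 13 libraries (columns), as log2(CPM + 0.1) minus the gene's mean over the libraries; red is above and blue below that mean. Brain libraries 3 to 5 are blue for nearly every gene, whereas brain libraries 1 and 2 are paler or red for many, and Rpl7l1, Rps4l and Rpl5 do not follow that pattern.

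Against brain microglia, sciatic nerve macrophages had log2 fold changes above 0 for 69 of the 82 tested ribosomal protein mRNAs, against 47.1% of all genes. Among the called genes the largest increases were those of Rpl10, Rps27a, Rps19, Rplp0 and Rps7, and Rps4l was lower. With all 13 libraries, 20 of the 82 tested genes were called higher and 1 lower at an adjusted p under 0.05 (Benjamini-Hochberg adjustment over all genes tested, edgeR's quasi-likelihood test). The same test called 24.1% of all genes higher and 24.3% lower, so 20 of 82 is near the background and is not a result about these genes. The median log2 fold change was 0.58 over the 82 genes, within a range of -1.05 to 1.75, and -0.09 over all genes. Of the 49 tested 60S genes 8 were called higher, with a median of 0.52, and of the 33 tested 40S genes 12, with a median of 0.73. All 4 sciatic nerve libraries lay above all 5 brain libraries in 13 of the 82 genes and below in 0, against 22.1% and 19.2% of all genes. Scaled to total counts without TMM, the split was 5 higher and 2 lower, beside 2242 higher and 4942 lower of all 13246 genes. The split by the pool's own sum is given below.

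In optic nerve macrophages the log2 fold change against brain microglia was above 0 for 76 of the 82 genes, against 47.1% of all genes. Rpl10, Rps27a, Rplp0, Rps19 and Rpl7a were at the head of the called genes. Higher levels were called for 19 of the 82 genes and lower levels for 0 (Benjamini-Hochberg adjusted, edgeR's quasi-likelihood test), against 19.6% and 17.4% of all genes. The 19 higher are near the background and are not a result about these genes. At an unadjusted p under 0.05 0 were lower in optic nerve, and DESeq2 also called 0 lower. The median log2 fold change was 0.65 over the 82 genes, within -0.71 to 1.99, and -0.08 over all genes. Both nerve comparisons use the same 5 brain libraries, so they are not independent, and 17 of the 82 genes were called higher in both. The share of all genes called higher in both was not taken, so the 17 are not a result about these genes. Rps25, Rps27l and Rpl14 were called in sciatic nerve alone and Rpl22l1 and Rpl3 in optic nerve alone.

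The counts of called genes turned on which brain libraries were used. Without brain libraries 1 and 2, 56 of the 82 genes were called higher in sciatic nerve and 1 lower (27.5% and 24.3% of all genes), with a median of 1.20. In optic nerve 60 were higher and 0 lower (23.7% and 18.5% of all genes), with a median of 1.25. With brain libraries 1 and 2 alone, an alternative chosen after seeing the data, 8 were called higher and 4 lower in sciatic nerve (21.0% and 19.2% of all genes), with a median of 0.08. In optic nerve they were 10 higher and 1 lower (16.3% and 12.5% of all genes), with a median of 0.15. Without brain library 1 only, 41 were called higher in sciatic nerve and 53 in optic nerve, beside 3434 and 2879 of all 12980 genes tested. Without brain library 3 the count in sciatic nerve was 13, beside 2974 of all 13097 genes. Without brain library 5 it was also 13, beside 2999 of all 13051 genes. Against brain libraries 3 to 5 all 8 nerve libraries were above in 60 of the 82 genes (18.9% of all genes), and against brain libraries 1 and 2 in 15 (18.2% of all genes). Genes called higher in all 3 fits, with all brain libraries and with each subset, numbered 8 in sciatic nerve and 9 in optic nerve. The share of all genes called in all 3 fits was not taken, so these counts have no background beside them. The genes in both lists numbered 7: Rpl7, Rps3a1, Rplp0, Rps9, Rps19, Rps3 and Rpl10. Rps3a1 in this list is named after its values were seen. Against brain libraries 3 to 5 the log2 fold changes of Rpl10 were 1.98 in sciatic nerve and 2.26 in optic nerve, and against brain libraries 1 and 2 they were 1.40 and 1.69. For Rps19 they were 1.82 and 1.77 against libraries 3 to 5, and 0.80 and 0.74 against libraries 1 and 2. Rps27a, Rps7, Rpl7a and Rps4x had no call in either nerve against brain libraries 1 and 2 alone, nor had Rps27l in sciatic nerve. In that fit the log2 fold changes of Rps27a (1.40 and 1.41) and Rpl7a (0.95 and 1.23) were of the size seen with all brain libraries, with larger standard errors. Those of Rps7 (0.67 and 0.67), Rps4x (0.35 and 0.37) and Rps27l in sciatic nerve (0.54) were smaller than with all brain libraries.

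**Figure D4:**
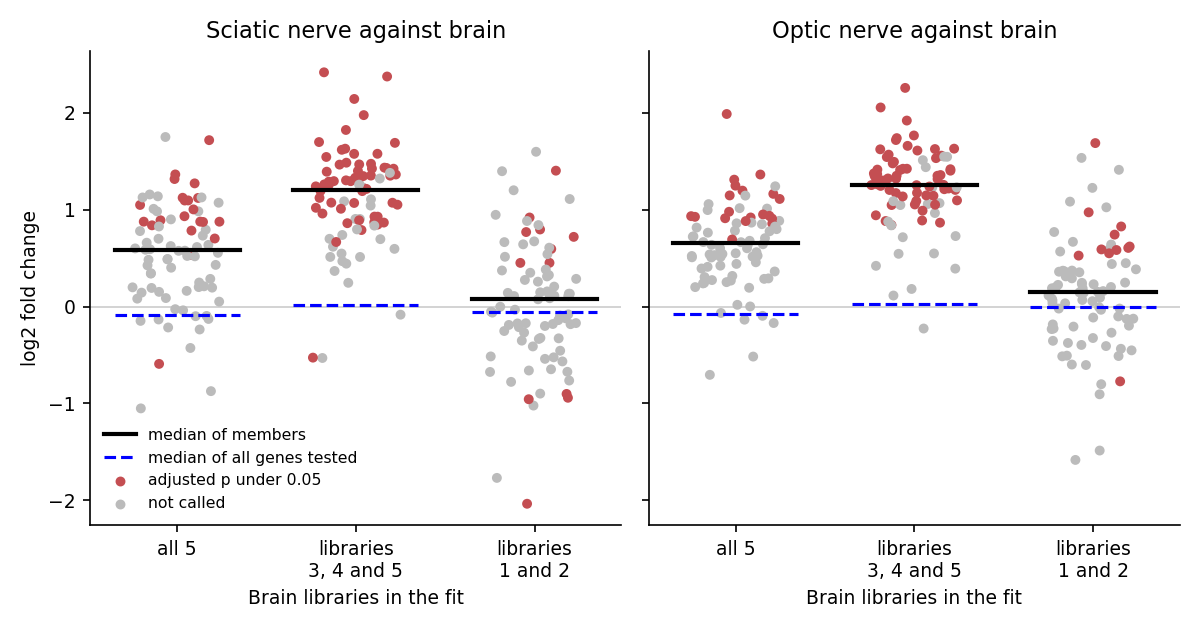
Log2 fold change of each tested gene in sciatic nerve against brain (left panel) and optic nerve against brain (right panel), fitted with all 5 brain libraries, with libraries 3, 4 and 5, or with libraries 1 and 2; red points have an adjusted p under 0.05, the black line is the median of the ribosomal protein genes and the dashed blue line the median of all genes tested. The black line lies at 0.58, 1.20 and 0.08 in the left panel and at 0.65, 1.25 and 0.15 in the right panel.

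Calls were most frequent among the genes with the highest levels, without a steady rise with level. Of the 21 genes with a mean over 50 CPM, 12 were called higher in sciatic nerve and 11 in optic nerve. Of the 21 genes at 20 to 50 CPM, 3 and 2 were called, with median log2 fold changes of 0.34 and 0.42. Of the 16 genes at 5 to 20 CPM, 4 and 5 were called, with medians of 0.64 and 0.74. Of the 24 genes under 5 CPM, 1 was called in each nerve, although their median log2 fold changes were 0.65 and 0.59, against 0.78 and 0.78 in the genes over 50 CPM. Shares over all genes of these levels were not taken. The median standard error of the sciatic nerve fold change was 0.59 in the low group and 0.25 in the high group.

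The P stalk, which recruits elongation factors to the large subunit, held 1 called gene and 2 that were not called. Rplp0, its base, had 295, 290, 242 and 303 CPM in the sciatic nerve, 268, 304, 330 and 259 CPM in the optic nerve, and 146, 155, 103, 84.8 and 95.8 CPM in the brain. Every nerve library lay above every brain library, with a log2 fold change of 1.27 (SE 0.18, adjusted p = 3.83e-05, edgeR's quasi-likelihood test) in sciatic nerve and 1.31 (SE 0.18, adjusted p = 5.61e-05) in optic nerve. Rplp1, one of the acidic proteins carried by Rplp0, had 66.2, 81.9, 69.3 and 84.2 CPM in the sciatic nerve, 96.6, 70.3, 84.8 and 74.9 CPM in the optic nerve, and 199, 86.1, 40.02, 34.5 and 44.3 CPM in the brain. Brain library 1 was the highest of the 13 for Rplp1 and brain libraries 3 to 5 the lowest, so the groups overlapped, with log2 fold changes of -0.10 (SE 0.41) and 0.02 (SE 0.41). Rplp2, the other acidic protein, had 34.4, 49.0, 51.3 and 55.8 CPM in the sciatic nerve, 57.0, 48.8, 44.3 and 52.3 CPM in the optic nerve, and 87.1, 45.1, 28.7, 22.8 and 31.1 CPM in the brain. It had the same arrangement as Rplp1 and no call in either nerve.

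The call for Rplp1 changed side with the brain libraries used. Against brain libraries 3 to 5 the log2 fold change of Rplp1 was 0.93 in sciatic nerve (SE 0.16, edgeR's quasi-likelihood test, adjusted p = 0.00029), and against brain libraries 1 and 2 it was -0.90 (SE 0.27, adjusted p = 0.0184). Rplp0 was called higher in both: its log2 fold change was 1.58 (SE 0.13) in sciatic nerve against libraries 3 to 5 and 0.92 (SE 0.16) against libraries 1 and 2. Within a library the ratio of Rplp1 to Rplp0 in CPM, not scaled for length, was 0.224 to 0.286 in sciatic nerve, 0.232 to 0.361 in optic nerve and 0.388 to 1.36 in brain. It was thus lower in every nerve library than in every brain library, libraries 3 to 5 included. The ratio of Rplp2 to Rplp0 behaved alike, at 0.116 to 0.212 in sciatic nerve, 0.134 to 0.213 in optic nerve and 0.268 to 0.595 in brain.

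**Figure D5:**
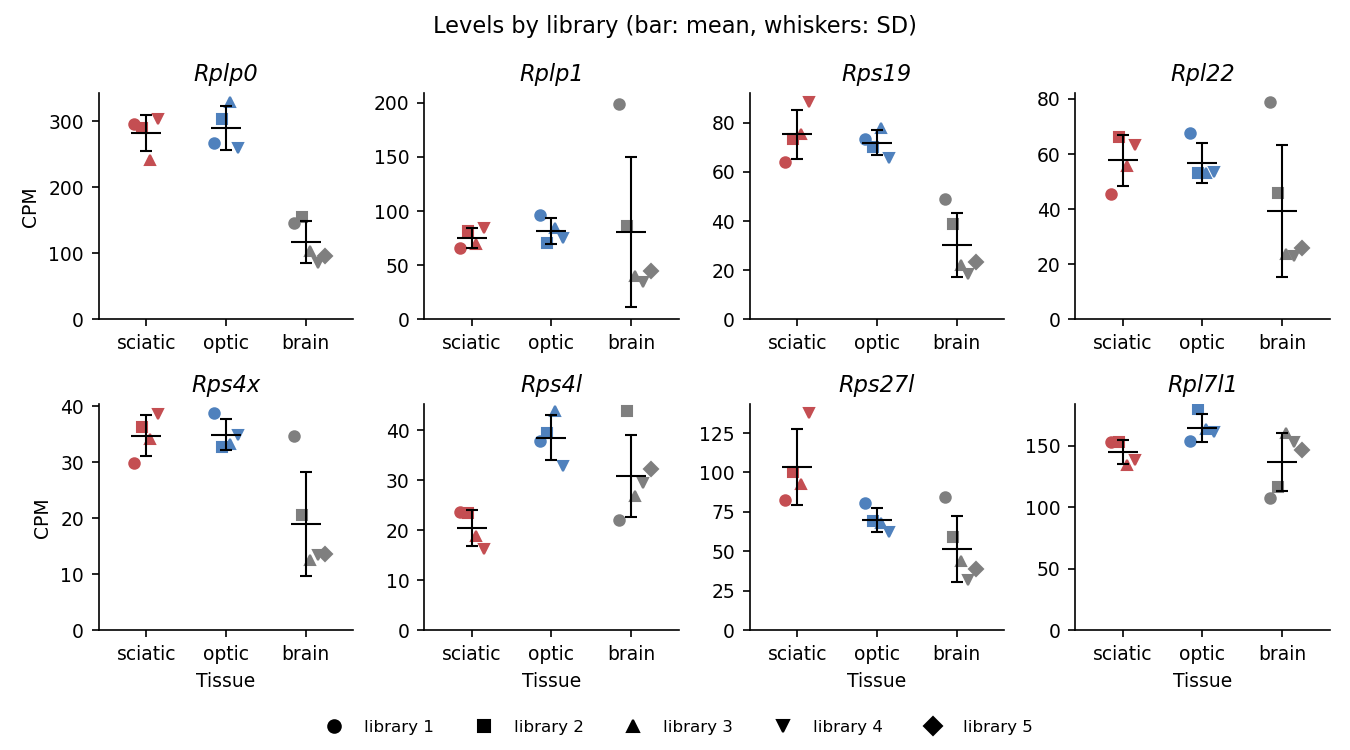
CPM by library for 8 ribosomal protein genes in sciatic nerve, optic nerve and brain, with symbols for library numbers and bars for the mean ± SD (n = 4, 4 and 5). Rplp0 and Rps19 are above brain in every nerve library, Rplp1 and Rpl22 have brain library 1 at the top, Rps4l is lowest in sciatic nerve, and Rpl7l1 is the 1 gene with brain libraries 1 and 2 below libraries 3 to 5.

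Among the small subunit genes, Rps19 is needed for maturation and is mutated in Diamond-Blackfan anaemia. It had 63.9, 73.5, 75.4 and 88.3 CPM in the sciatic nerve, 73.5, 70.2, 77.7 and 65.8 CPM in the optic nerve, and 48.9, 38.7, 22.2, 18.4 and 23.2 CPM in the brain. No nerve library overlapped the brain, and the log2 fold change was 1.32 (SE 0.25, adjusted p = 0.000535, edgeR's quasi-likelihood test) in sciatic nerve and 1.25 (SE 0.25, adjusted p = 0.00142) in optic nerve. Rps3 had 411, 484, 368 and 456 CPM in the sciatic nerve, 513, 445, 490 and 424 CPM in the optic nerve, and 319, 315, 203, 191 and 219 CPM in the brain. The fold was smaller than for Rps19 but the libraries again did not overlap, with log2 fold changes of 0.78 (SE 0.17) and 0.91 (SE 0.17). Rps9, a decoding-site neighbour in which mutations affect accuracy in yeast, had 330, 347, 296 and 372 CPM in the sciatic nerve, 346, 345, 413 and 299 CPM in the optic nerve, and 268, 229, 145, 128 and 138 CPM in the brain. All 8 nerve libraries lay above the highest brain library, with log2 fold changes of 0.89 (SE 0.21) and 0.95 (SE 0.21).

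Rps27a, which encodes ubiquitin fused to a 40S protein, had 4.71, 3.53, 3.02 and 3.73 CPM in the sciatic nerve, 3.67, 5.43, 2.68 and 3.20 CPM in the optic nerve, and 1.36, 1.49, 1.21, 1.51 and 1.67 CPM in the brain. The brain libraries were alike for it, libraries 1 and 2 included, and the log2 fold change was 1.36 (SE 0.43) in each nerve (adjusted p = 0.0159 in sciatic nerve and 0.0212 in optic nerve, edgeR's quasi-likelihood test). Without optic nerve library 2 the optic nerve call was lost, at an adjusted p of 0.0796 in edgeR's quasi-likelihood test. Rps7 binds the p53 regulator MDM2 in free form. It had 11.4 to 14.9 CPM in the sciatic nerve, 11.7 to 14.5 CPM in the optic nerve and 3.87 to 8.16 CPM in the brain, with log2 fold changes of 1.12 (SE 0.29) and 1.11 (SE 0.29). Rps6 is the substrate of the S6 kinases. It had 1.59 to 2.35 CPM in the sciatic nerve, 1.71 to 2.69 CPM in the optic nerve and 0.757 to 1.64 CPM in the brain and was not called. Its log2 fold changes were 0.90 (SE 0.50) and 1.01 (SE 0.50). Rpsa, also known as the laminin receptor, had 4.39 to 7.19 CPM in the sciatic nerve, 5.11 to 6.36 CPM in the optic nerve and 0.871 to 11.3 CPM in the brain, where the top value came from brain library 1. Without that library both nerves were called higher for Rpsa, at adjusted p = 0.0152 in sciatic nerve and 0.0265 in optic nerve (edgeR's quasi-likelihood test).

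Among the large subunit genes, Rpl10, which joins late and lies near the peptidyl transferase centre, had the largest called fold change in each nerve. It had 6.08, 7.26, 6.12 and 7.86 CPM in the sciatic nerve, 10.8, 8.23, 7.87 and 6.04 CPM in the optic nerve, and 1.59, 3.56, 1.17, 2.46 and 1.54 CPM in the brain. The nerves did not overlap the brain, with log2 fold changes of 1.72 (SE 0.39, adjusted p = 0.00218, edgeR's quasi-likelihood test) and 1.99 (SE 0.39, adjusted p = 0.00129). Most of its windows are shared with copies, as given above. Rpl7a had 6.93, 7.06, 6.26 and 5.93 CPM in the sciatic nerve, 7.35, 8.77, 9.71 and 5.62 CPM in the optic nerve, and 2.64, 4.16, 3.26, 3.94 and 3.09 CPM in the brain. Its log2 fold change was 0.93 (SE 0.32) in sciatic nerve, a call lost without sciatic nerve library 1 or 2 or brain library 3 or 5 (adjusted p of up to 0.0542, edgeR's quasi-likelihood test), and 1.20 (SE 0.32) in optic nerve.

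Rpl4 had 379, 361, 341 and 443 CPM in the sciatic nerve, 504, 498, 520 and 459 CPM in the optic nerve, and 411, 279, 209, 199 and 219 CPM in the brain. Optic nerve lay above brain in every library (log2 fold change 0.91, SE 0.19, adjusted p = 0.0021, edgeR's quasi-likelihood test). Sciatic nerve overlapped brain library 1, and its call (0.53, SE 0.19) was lost without sciatic nerve library 1 or 4 or any 1 of brain libraries 3, 4 and 5. Rpl5 and Rpl11, which carry the smallest ribosomal RNA into the large subunit and inhibit MDM2 when free, had low levels and no call. Rpl5 had 0.792 to 1.57 CPM in the sciatic nerve, 1.17 to 2.26 CPM in the optic nerve and 0.529 to 2.53 CPM in the brain, with brain library 1 the lowest of the 13. Rpl11 had 0.576 to 2.77 CPM in the sciatic nerve, 0.906 to 1.36 CPM in the optic nerve and 0.265 to 1.39 CPM in the brain. At these levels the standard errors of the log2 fold changes were 0.57 to 0.64, so a change of the size seen for Rps3 was not detectable.

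The paralogs did not all follow their parent genes. Rps4l had 23.6, 23.4, 18.9 and 16.2 CPM in the sciatic nerve, 37.8, 39.5, 43.8 and 32.9 CPM in the optic nerve, and 22.1, 43.8, 26.9, 29.4 and 32.4 CPM in the brain. The 4 sciatic nerve libraries were below the 4 optic nerve libraries, and it was the 1 gene called lower in sciatic nerve than in brain (log2 fold change -0.59, SE 0.21, adjusted p = 0.0325, edgeR's quasi-likelihood test). That call was lost without sciatic nerve library 3 or 4 or without brain library 2 or 5, at adjusted p values up to 0.0855 in edgeR's quasi-likelihood test. Rps4x had 29.9, 36.3, 34.2 and 38.6 CPM in the sciatic nerve, 38.9, 32.8, 33.2 and 34.8 CPM in the optic nerve, and 34.7, 20.5, 12.5, 13.5 and 13.6 CPM in the brain. It was called higher in both nerves (log2 fold change 0.88, SE 0.27, in each), with brain library 1 inside the nerve range. The ratio of Rps4l to Rps4x within a library, not scaled for length, was 0.420 to 0.790 in sciatic nerve and 0.946 to 1.32 in optic nerve. In brain it was 0.636 in library 1 and 2.13 to 2.38 in libraries 2 to 5.

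Rps27l, a p53-inducible paralog of Rps27, had 82.4, 101, 92.8 and 138 CPM in the sciatic nerve, 80.4, 69.2, 68.2 and 62.1 CPM in the optic nerve, and 84.2, 59.3, 44.0, 32.0 and 38.7 CPM in the brain. It was called higher in sciatic nerve than in brain (1.00, SE 0.25, adjusted p = 0.00399, edgeR's quasi-likelihood test) and not in optic nerve (0.44, SE 0.25, adjusted p = 0.182), where leaving out brain library 1 gave an adjusted p of 0.0154. The direct difference of sciatic from optic nerve was 0.56 (SE 0.26, adjusted p = 0.153). Its parent Rps27 had 2.07 to 4.68 CPM in the sciatic nerve, 1.78 to 4.09 CPM in the optic nerve and 1.12 to 1.74 CPM in the brain. It was not called, at log2 fold changes of 1.13 (SE 0.48) and 1.00 (SE 0.48). Per kb of exons Rps27l averaged 89.7 CPM over the 13 libraries and Rps27 2.21 CPM, with 13.7% and 63.1% of windows shared with other genes.

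Rpl7l1, which acts in large subunit assembly, had 153, 153, 134 and 138 CPM in the sciatic nerve, 154, 180, 163 and 161 CPM in the optic nerve, and 107, 116, 160, 153 and 146 CPM in the brain. It had no call in any of the 3 comparisons, with log2 fold changes of 0.08 (SE 0.14) in sciatic nerve and 0.27 (SE 0.14) in optic nerve against brain. Rpl7 had 98.8 to 149 CPM in the nerves and 46.2 to 76.4 CPM in the brain (1.05, SE 0.18, and 0.92, SE 0.18). Scaled to total counts, without TMM, Rpl7l1 was called lower in sciatic nerve (-0.36). Rpl22l1 had 4.97 to 10.9 CPM in the sciatic nerve, 8.99 to 14.5 CPM in the optic nerve and 3.05 to 8.46 CPM in the brain. It had a call in optic nerve (1.15, SE 0.38, adjusted p = 0.0277, edgeR's quasi-likelihood test) that was lost without optic nerve library 1 or 2 or any 1 of brain libraries 3 to 5. Its parent Rpl22 had 45.4 to 66.3 CPM in the sciatic nerve, 52.98 to 67.6 CPM in the optic nerve and 22.9 to 78.8 CPM in the brain. It was called in each nerve when brain library 1 was left out. Rpl36al was at 31.5 to 54.2 CPM in the sciatic nerve, 32.6 to 47.6 CPM in the optic nerve and 20.3 to 40.5 CPM in the brain. Per kb of exons it averaged 25.8 CPM, against 0.798 CPM for its parent Rpl36a. Rpl39l, known from testis, averaged 1.43 CPM per kb, against 22.6 CPM per kb for Rpl39, and none of these 4 genes was called with all libraries. Rpl3, the parent of the muscle paralog Rpl3l, had 22.0, 24.8, 18.9 and 20.9 CPM in the sciatic nerve, 34.4, 33.5, 32.7 and 34.2 CPM in the optic nerve, and 22.4, 22.2, 12.6, 12.6 and 15.6 CPM in the brain. It had a call in optic nerve against brain (0.98, SE 0.21, adjusted p = 0.00254, edgeR's quasi-likelihood test).

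Between the nerves few ribosomal protein mRNAs were called. Sciatic nerve had 0 of the 82 genes called higher than optic nerve and 1 lower (Benjamini-Hochberg adjusted, edgeR's quasi-likelihood test), against 10.9% and 10.9% of all genes, and the median log2 fold change was -0.06, against 0.00 over all genes. At an unadjusted p under 0.05 0 were higher and 3 lower in sciatic nerve, and DESeq2 called 0 higher and 2 lower. The 1 called gene was Rps4l, with a log2 fold change of -0.91 (SE 0.22, adjusted p = 0.00833, edgeR's quasi-likelihood test), and it kept that call with brain libraries 1 and 2 or brain libraries 3 to 5 left out. All sciatic nerve libraries lay below all optic nerve libraries for 7 genes, Rpl4, Rpl7l1, Rps4l and Rpl3 among them, and above them for 1, Rps27l, against 14.4% and 15.5% of all genes. Rpl3 had an adjusted p of 0.0578 in edgeR's quasi-likelihood test (-0.64, SE 0.23), and passed the threshold without brain library 1 (adjusted p = 0.0332) or brain library 2 (adjusted p = 0.0471); the brain libraries enter the shared estimate of the spread. Without brain libraries 1 and 2, 1 gene was called higher and 5 lower, against 15.3% and 15.1% of all genes.

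With libraries scaled to the summed counts of the 89 genes, which asks how the make-up of the pool differed, 3 genes were called higher in sciatic nerve than in brain (11.8% of all genes) and 6 lower (43.1% of all genes). Rplp0 and Rps19 were among the higher ones, and the lower ones were Rpl12, Rps4l, Rpl13a, Rpl18, Rpl37 and Rpl30, of which those outside the rule for named genes are given after seeing their values. In optic nerve 3 were higher (Rplp0, Rps19 and Rpl10; 7.56% of all genes) and 0 lower (42.2% of all genes). Rplp0 was thus a larger part of the pool in both nerves, at log2 fold changes of 0.55 (SE 0.20, adjusted p = 0.0306, edgeR's quasi-likelihood test) and 0.51 (SE 0.20, adjusted p = 0.0465). Rps4l was a smaller part of it in sciatic nerve, at -1.40 (SE 0.33, adjusted p = 0.00268, edgeR's quasi-likelihood test). Between the nerves Rps27l was the 1 gene called, higher in sciatic nerve at 0.62 (SE 0.19, adjusted p = 0.0387, edgeR's quasi-likelihood test), against 7.76% of all genes higher and 6.23% lower.

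The starts of these genes were read from RefSeq (GRCm38.p6), where 64 of the 89 had a promoter entry. The bases around the annotated start (30 before and 20 after) are shown for 4 genes the values above turn on. Capitals mark the longest pyrimidine run touching the stretch from 5 bases before to 5 bases after the start.
Rpl7a: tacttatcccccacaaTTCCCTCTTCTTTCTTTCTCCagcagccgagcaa
Rps9: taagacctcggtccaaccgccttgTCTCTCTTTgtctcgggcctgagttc
Rplp2: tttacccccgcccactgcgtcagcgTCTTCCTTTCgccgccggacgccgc
Rplp0: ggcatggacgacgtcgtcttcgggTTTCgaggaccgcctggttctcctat
They lie at chr2:26910777-26910826 (plus strand), chr7:3704011-3704060 (plus), chr7:141447621-141447670 (plus) and chr5:115559437-115559486 (plus). The run marked for Rplp0, the called member of the P stalk, has 4 bases, begins 6 bases before its annotated start and does not reach it. Rplp2, which was not called, has a run of 10. Rplp0 was picked as a gene without a run of at least 8, so the pair does not represent called and uncalled genes. A run of at least 8 C or T on the coding strand that touches the stretch from 5 bases before to 5 bases after the start was found in 24 of the 64 genes (37.5%) and in 12.3% of 9007 protein-coding tested genes with an entry. It was present in 7 of the 16 genes called higher in either nerve and in 17 of the other 48. Where a gene had several entries, the one with the longest run was used. The search used annotated starts, which can lie some bases from the true one.

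Other genes of translation, from lists chosen with results of these data known, are given by counts, beside 24.1% of all genes called higher and 24.3% lower in sciatic nerve and 19.6% and 17.4% in optic nerve. Of the ribosomal proteins under other symbols, Rack1, a scaffold on the 40S head, averaged 262 ± 31.7 CPM in the sciatic nerve and 137 ± 84.7 CPM in the brain (SD, n = 4 and 5). It was called higher in sciatic nerve (log2 fold change 0.93, SE 0.33, adjusted p = 0.0285, edgeR's quasi-likelihood test). Fau was not called in either nerve. Of 22 further transcripts known to carry a TOP tract, 16 were called higher and 0 lower in sciatic nerve, and likewise 16 and 0 in optic nerve, with medians of 0.86 and 0.96. Vim, an intermediate filament gene, led them, with 1415 ± 123 CPM in the sciatic nerve, 156 ± 16.0 CPM in the optic nerve and 2.59 ± 1.47 CPM in the brain, followed by Snhg1 and Nap1l1. That list holds elongation factors too. Of 9 tested elongation genes, 6 were called higher and 1 lower in sciatic nerve, and 5 and 1 in optic nerve. Eef1a1, which delivers aminoacyl-tRNA, had 625 ± 17.0 CPM in the sciatic nerve, 840 ± 13.2 CPM in the optic nerve and 351 ± 99.5 CPM in the brain. Eif5a had 556 ± 42.1, 516 ± 72.0 and 211 ± 43.9 CPM, in that order of tissues. Eef2k, the kinase that inhibits elongation factor eEF2, was lower in both nerves, at log2 fold changes of -1.59 (SE 0.22) and -0.99 (SE 0.21).

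Of 39 initiation genes, 18 were called higher and 3 lower in sciatic nerve and 19 and 3 in optic nerve. The start-codon scanning factors had the largest changes. Eif1a had 728 ± 44.6 CPM in the sciatic nerve, 636 ± 122 CPM in the optic nerve and 54.9 ± 9.79 CPM in the brain. Eif1 had 617 ± 105, 402 ± 37.8 and 93.9 ± 17.1 CPM in the same tissues. The list's medians were 0.37 and 0.49, against -0.09 and -0.08 over all genes. Ribosome biogenesis had 14 higher and 4 lower of 49 in sciatic nerve and 22 and 2 in optic nerve. Nop58, a core protein of the particles that methylate ribosomal RNA, had log2 fold changes of 3.09 (SE 0.20) and 3.10 (SE 0.20). Nop2 and the polymerase I subunit gene Polr1a were lower in both. Genes of the mTORC1 pathway were divided, with 8 higher and 5 lower of 28 in sciatic nerve and 4 and 3 in optic nerve. Rheb, which activates mTORC1, was higher in both (1.57, SE 0.15, and 1.97, SE 0.15), and Rptor, a subunit of mTORC1, was lower in both (-3.30, SE 0.32, and -1.03, SE 0.29). Ribosome rescue and quality control had 3 higher and 3 lower of 15 in sciatic nerve and 1 and 2 in optic nerve, with Gcn1l1, which senses stalled ribosomes, lower in both (-2.95, SE 0.40, and -2.53, SE 0.39). Of 8 tested p53 and stress targets, 5 were higher and 1 lower in sciatic nerve and 6 and 1 in optic nerve. Cdkn1a, a cell cycle inhibitor, had 964 ± 142 CPM in the sciatic nerve, 612 ± 125 CPM in the optic nerve and 11.5 ± 3.57 CPM in the brain. Without brain libraries 1 and 2, 27.5% of all genes were called higher and 24.3% lower in sciatic nerve, and 23.7% and 18.5% in optic nerve. The counts of higher and lower genes in sciatic nerve were then 20 and 0 for the other TOP transcripts and 7 and 1 for elongation. They were 21 and 3 for initiation, 15 and 4 for biogenesis and 8 and 5 for the mTORC1 pathway. Rescue had 4 and 2, and p53 targets had 5 and 2. In optic nerve the counts were 21 and 0, 6 and 1, 26 and 3, 25 and 4, 7 and 3, 3 and 2, and 6 and 1, in the same order of lists. These nerve libraries had the high immediate early levels given above, and the part of that response in these lists was not tested.

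Between the nerves, 10.9% of all genes were called higher and 10.9% lower in sciatic nerve. Initiation had 3 genes higher and 2 lower of 39, elongation 0 and 0 of 9 and the other TOP transcripts 2 and 0 of 22. Biogenesis had 2 and 5 of 49, the mTORC1 pathway 3 and 2 of 28, rescue 1 and 0 of 15 and p53 targets 2 and 2 of 8. Outside the p53 targets these counts were near or below the shares of all genes and are not a result about the lists. Eif5 was lower in sciatic nerve (-0.86, SE 0.13), and Eif1 higher (0.62, SE 0.17). Deptor, an inhibitor of mTORC1, was higher in sciatic nerve (50.1 ± 6.40 CPM in the sciatic nerve and 9.45 ± 4.04 CPM in the optic nerve). Rptor was lower (13.7 ± 8.88 CPM in the sciatic nerve and 66.2 ± 6.80 CPM in the optic nerve).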

How the data were processed

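The authors deposited whole-number read counts by gene symbol, from STAR and featureCounts 1.5.1 on mm10, per the submitters' processing notes. STAR's version, the annotation, strandedness and the handling of multi-mapped reads are not given in the sources used. Columns of per-sample values not used numbered 0. R 4.3.3 and edgeR 4.0.16 were used: filterByExpr by tissue, TMM scaling, and 1 quasi-likelihood fit of all 13 libraries by tissue, without a replicate block. Each of the 3 contrasts had edgeR's quasi-likelihood F-test, with p-values adjusted by Benjamini-Hochberg across 13246 genes, and genes were called at an adjusted p under 0.05. CPM are counts per M, with library sizes scaled by TMM. The fit was tested on simulated data. Lengths, gene types, exon overlaps and shared 50-base windows came from GENCODE vM21, which matched all 89 members; it is not known to be the authors' annotation.

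The members, the lists and the rule for named genes were chosen with earlier results of these data known. Named were the 5 called genes with the largest change in each direction per contrast, the 3 highest by mean CPM, the P stalk, the paralogs with their parents, Rpsa, Rps6, Rpl5 and Rpl11, and per list the 2 called genes with the largest change in each direction. Alternatives covered scaling, filters, DESeq2 1.42.0, membership, libraries left out and a replicate block. Results for a few genes are not reported here.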

Additional observations from a re-analysis of the deposited data

Results flagged for a closer look

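Of 87 sets of replicates tested, 2 held a library that stood apart from the others of its tissue, and chance alone marks about 1 in 20. Rpl39, which lines the peptide exit tunnel, had 66.5 CPM in brain library 1, against 15.3 to 30.0 CPM in the other 4 brain libraries. Rpl22 had 67.6 CPM in optic nerve library 1, against 52.98 to 53.7 CPM in the other 3 optic nerve libraries.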

How the results depend on the processing

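In this paragraph a pair such as 20/1 gives genes called higher/lower of those tested, in sciatic nerve against brain, then optic nerve against brain, then sciatic against optic nerve; the values with all libraries were 20/1, 19/0 and 0/1. Scaling to total counts gave 5/2, 11/0 and 0/3 and moved the median of all genes to -0.53, -0.33 and -0.19, and scaling to summed member counts gave 3/6, 3/0 and 1/0, with member medians of -0.035 in sciatic nerve and -0.028 in optic nerve against brain and medians of all genes of -0.89, -0.97 and 0.08. A mean CPM of at least 10, which left 50 of these genes to test, gave 12 higher in sciatic nerve against brain, and no filter gave 0 lower. Fitting only the compared tissues gave 13/0 in the first comparison and 1/4 between the nerves, and DESeq2 gave 2 lower between the nerves. Without brain libraries 1 and 2 the counts were 56 and 60 higher and 1/5, with medians of 1.20 and 1.25. Without brain libraries 3 to 5, chosen after seeing the data, they were 8/4, 10/1 and 3 lower, with medians of 0.075 and 0.15. Leaving out 1 library at a time gave 13 to 41 higher and 0 to 1 lower in the first comparison, 15 to 53 higher in the next and 1 to 4 lower between the nerves. Without the divergent paralogs and with the ribosomal protein genes under other symbols added, 0 were lower in sciatic nerve against either tissue, where Rps4l had been the 1 gene, and the optic nerve share of counts was 0.420%. Changes of sign with a call in either fit were found for Rplp1, Rpl7l1 and Rpl4. Rplp1 changed in sciatic nerve (0.93 without brain libraries 1 and 2) and optic nerve (-0.77 without brain libraries 3 to 5). Rpl7l1 changed in sciatic nerve (-0.36 with total counts), and so did Rpl4 (-0.17 scaled to member counts). Further named genes changed sign with no call in either fit. In sciatic nerve without brain libraries 3 to 5 these included Rplp2 (-0.46), Rpsa (-0.35) and Rpl22 (-0.09). Under the remaining scalings and with -ps counts added, every count stayed within 1.5 times.

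Same-numbered nerve libraries showed no shared deviation: correlations of their deviations ran from -0.07 to 0.02, and 1 sciatic nerve library correlated best with its own number. Such values cannot show whether these libraries were paired when they were collected. A replicate block on the nerve libraries gave 0 higher and 2 lower of these genes, and 2840 calls over all genes, against 2892 without it. Depth limits the 24 genes under 5 CPM, with a median standard error of 0.59.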
